A study of Mus musculus with 239 samples.

Results

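The genes described here encode the proteins of the cytosolic ribosome, measured in single epithelial cells of the mouse mammary gland. Members were taken by gene name, as every row of the expression table called Rpl or Rps followed by a number, or Rplp0, Rplp1 or Rplp2, which leaves out the Rps6k kinases. The pattern gave 82 of the 18850 genes of the table, 51 of them Rpl genes of the large subunit and 31 Rps genes of the small subunit. The pattern uses names alone and no measured value, though it was chosen with earlier results of these data known. The study asked how varied the cells of the mammary epithelium are and how their states relate. Its cells came from FVB females aged 3 to 4 months, with no transgene or drug named in the labels. The mice were either virgin or pregnant at day 12 (12.5 in the protocol). After depletion of blood-lineage and endothelial cells, flow cytometry sorted CD24-mid, CD29-high cells as basal and CD24-high, CD29-low cells as luminal. Of the 239 cells, 34 were virgin basal, 54 virgin luminal and 49 pregnant luminal, and the rest were pregnant basal, each captured on a Fluidigm C1 chip and checked for doublets under a microscope.

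A ribosome joins a small subunit, which reads the messenger RNA, to a large subunit, which forms the peptide bond. Each subunit is built on ribosomal RNA from one copy of nearly every ribosomal protein, so the proteins are made in balanced amounts. Their messenger RNAs are among the most abundant of a growing cell. Most begin with a pyrimidine-rich stretch, the TOP motif, through which mTOR signalling and the protein LARP1 set how strongly they are translated. In the mammary gland, luminal cells of mid-pregnancy turn to milk protein synthesis, while basal cells become contractile myoepithelium.

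Values are FPKM, fragment numbers per kilobase of transcript and per mapped total, so levels of different genes can be set side by side. No label names the mouse, chip or day of a cell, so each group stands as 1 sample. Cells of 1 group are not replicates, and no p-value is given. Ranges and SDs describe the spread over cells. Shares of cells carry 95% Clopper-Pearson (exact) intervals, which treat cells as independent draws and reflect the counting of cells alone. They leave out variation between mice, chips and days. Copies made by PCR cannot be told from separate molecules.

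Depth recovered from the steps between low values had medians of 6.19 M fragments for virgin basal cells, 8.54 for virgin luminal, 9.12 for pregnant basal and 8.86 for pregnant luminal cells, over a range of 1.15 to 39.9 in all cells. Genes at 1 FPKM or more numbered 1825, 3773, 2734 and 3653 in the median cell of those groups. The 6 basal markers (Krt5, Krt14, Krt17, Acta2, Myl9 and Tagln) summed to a median of 4660 FPKM in virgin and 11496 in pregnant basal cells, against 0.294 and 91.5 in the luminal groups. The 6 luminal markers (Krt8, Krt18, Krt19, Cldn3, Cldn4 and Epcam) summed to 3256 and 2943 FPKM in virgin and pregnant luminal cells and to 136 and 279 in the basal groups. Single cells departed from these medians. Basal marker sums ran from 0.249 to 34928 FPKM in virgin basal cells and reached 15078 in pregnant luminal cells. At least 2 basal markers reached 1 FPKM in 29 of 34 virgin basal cells and nearly every pregnant basal cell. They also did so in 16 of 49 pregnant luminal and 4 of 54 virgin luminal cells. At least 2 luminal markers did so in 21 of 34 virgin basal cells, 85 pregnant basal cells and every luminal cell. At least 2 of 8 endothelial markers reached 1 FPKM in 7 virgin basal, 4 pregnant basal, 1 pregnant luminal and 0 virgin luminal cells. Their summed level ran from 0 to 6702 FPKM in virgin basal cells, to 1985 in pregnant basal cells and to 247 in pregnant luminal cells. In virgin luminal cells all 8 stayed under 1 FPKM.

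Promoter sequence is shown for the members on which the later comparisons turn. These are Rps27 and its close relative Rps27l, Rpl22 and its relative Rpl22l1, the divergent Rpl7l1, and Rps6, a small-subunit protein phosphorylated by S6 kinase, as an abundant member for comparison. The windows are from RefSeq (GRCm38.p6), 5′ to 3′ on the gene's strand, with 70 bases before the annotated start and 30 from it. Capitals mark CTTTC (the core of a pyrimidine stretch), CGGAAG (the core bound by ETS factors) and AAGATGG (a YY1 core) on either strand.
Rps27, chr3:90213619-90213718, minus strand: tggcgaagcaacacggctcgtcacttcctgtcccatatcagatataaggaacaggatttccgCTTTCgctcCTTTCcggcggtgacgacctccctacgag
Rps27l, chr9:66946016-66946115, plus strand: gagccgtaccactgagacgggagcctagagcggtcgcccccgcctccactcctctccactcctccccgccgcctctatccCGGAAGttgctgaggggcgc
Rpl22, chr4:152325656-152325755, plus strand: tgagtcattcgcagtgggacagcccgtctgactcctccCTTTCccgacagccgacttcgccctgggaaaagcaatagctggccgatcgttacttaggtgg
Rpl22l1, chr3:28805438-28805537, plus strand: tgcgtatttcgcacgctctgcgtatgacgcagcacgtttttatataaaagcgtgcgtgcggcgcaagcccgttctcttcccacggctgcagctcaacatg
Rpl7l1, chr17:46782627-46782726, minus strand: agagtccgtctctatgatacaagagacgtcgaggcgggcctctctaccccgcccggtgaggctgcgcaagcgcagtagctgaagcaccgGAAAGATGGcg
Rps6, chr4:86857338-86857437, minus strand: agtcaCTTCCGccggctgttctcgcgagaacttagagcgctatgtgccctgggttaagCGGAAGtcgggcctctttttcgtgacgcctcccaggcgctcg

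In these windows Rps27 holds CTTTC on both sides of its start and Rpl22 holds it upstream, while Rps27l and Rpl22l1 hold none. Over the 62 members with a RefSeq promoter, CTTTC lay on the gene's strand within 25 bases of the start in 18 (29%), against 5.49% of 14206 other genes of the table. CGGAAG occurred on either strand of the 300-base window (250 bases before the start and 50 after) in 66.1% of members and 23.8% of the other genes. AAGATGG occurred in 14.5% of members and 6.55% of the other genes. Sites may overlap and each was counted for its own motif, as in Rpl7l1, where AAGATGG runs into GAAAG, the reverse complement of CTTTC. A match describes letters only and is no measured binding site.

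Ribosomal protein genes held about one part in 5 of the summed FPKM of a cell in every group. The share ran from 6.18 to 32.9% in virgin basal cells (median 20.8%) and from 7.32 to 27.7% in virgin luminal cells (median 17.1%). It ran from 10.6 to 28.4% in pregnant basal cells (median 18.8%) and from 9.04 to 36.4% in pregnant luminal cells (median 17.7%). The 4 ranges overlapped over most of their length, and each difference of medians was smaller than the SD over cells, which was 3.89 percentage points in pregnant basal cells and 4.65 to 6.36 in the other groups.

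Milk protein messages took up part of the denominator in pregnant luminal cells. The 8 milk protein genes (caseins, Wap and others) held a median of 17.5% of their summed FPKM, 0.829% in virgin luminal cells and at most 0.0131% in the median basal cell. With those genes left out, the median share of ribosomal protein genes was 22.1% in the pregnant luminal and 18.3% in the virgin luminal cells, beside 20.8% in virgin basal and 18.8% in the pregnant basal cells. The order of the 2 pregnant groups therefore turned with the denominator, from 1.17 percentage points higher in basal cells to a difference of -3.30. Across the 49 pregnant luminal cells the ribosomal share and the milk share had a Spearman rho of -0.72. With milk genes out of the denominator rho was -0.43; the 2 shares come from the same library, and the rest of that relation was not tested.

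**Figure D1:**
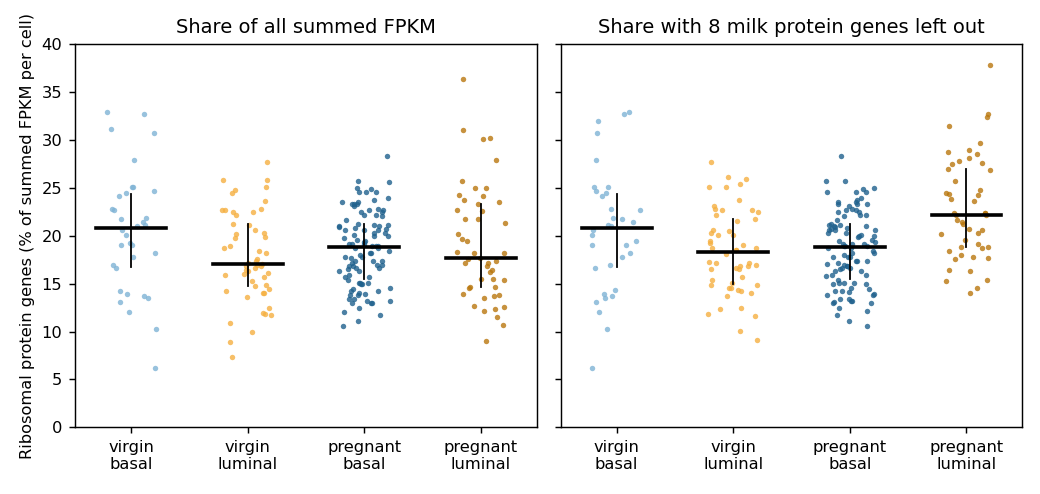
Share of ribosomal protein genes in the summed FPKM of each cell (vertical axis, %), by group, with all genes in the denominator (left) and with 8 milk protein genes left out (right). Points are cells, thick bars medians and thin bars quartiles. The pregnant luminal median moves from 17.7% to 22.1% between the panels, while both basal medians stay at 20.8% and 18.8%.

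Nearly the whole set was found in most cells. Of the 82 members, 79 averaged at least 1 FPKM over the 4 group means. The median cell held 76 members at 1 FPKM or more in virgin basal (range 40 to 79), 78 in virgin luminal (68 to 79), 77 in pregnant basal (65 to 79) and 78 in pregnant luminal cells (67 to 79). Fewer than 70 members were found in 10 cells, 5 of them virgin basal, and all 10 had fewer than 2000 genes in all. At least 1 FPKM in every cell of the group was reached by 18 members in virgin basal cells, 64 in virgin luminal cells, 49 in pregnant basal cells and 65 in pregnant luminal cells. The 7 virgin basal cells with 2 or more endothelial markers held a median of 69 members and a ribosomal share of 13.7%, against 77 members and 21.8% in the other 27, and 1387 against 1904 genes.

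**Figure D2:**
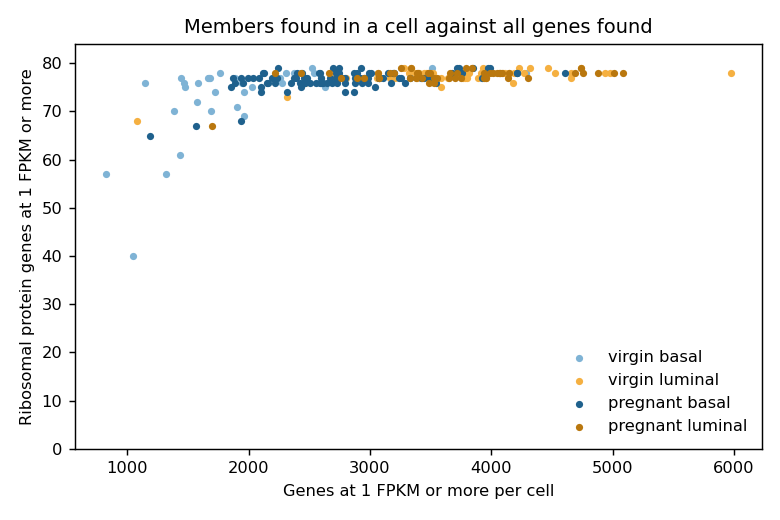
Number of ribosomal protein genes at 1 FPKM or more (vertical axis) against the number of all genes at 1 FPKM or more (horizontal axis) in each of 239 cells, coloured by group. Cells above 2000 genes sit near 77 members, and the 10 cells under 70 members all lie below 2000 genes.

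Summed levels of the 2 subunits had similar median ratios in the 4 groups, with a wider spread among virgin basal cells than in either pregnant group. The log2 ratio of summed Rpl to summed Rps FPKM had medians of 0.48 in virgin basal cells, 0.47 in virgin luminal cells, 0.51 in pregnant basal cells and 0.41 in pregnant luminal cells. The pregnant luminal cells ran from 0.10 to 0.70 and the pregnant basal cells from 0.11 to 1.08, so the groups overlapped. Virgin basal cells ran from -0.30 to 1.70, with an SD of 0.34, against 0.12 in pregnant luminal and 0.17 in pregnant basal cells. Virgin luminal cells had an SD of 0.36. Of these, replicate 15 stood at 3.00, while the other 53 cells of its group lay between 0.30 and 0.69. In that cell Rpl23a held 21.9% of the ribosomal FPKM, Rpl32 16.4%, Rpl18 12.4%, Rpl38 10.5% and Rpl7l1 8.86%. It had 1081 genes, 68 members and 1.18 M fragments.

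Levels differed more between members than between groups. Rpl41, a very short basic peptide of the large subunit (chr10:128548114-128549305), was the most abundant member, at a mean of 3036 FPKM over the 4 group means. It came first in every group, with 4.52 to 4.88% of the ribosomal FPKM. Rps18, a protein of the small-subunit head (chr17:33951999-33956001), averaged 2188 FPKM. Rps19, which is mutated in Diamond-Blackfan anaemia, averaged 1835, Rpl9 1738 and Rpl32 1673 FPKM. The 10 most abundant members together held 28.3 to 29.9% of the ribosomal FPKM of a group, so no small subset dominated the set.

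Of the members studied for a function of their own, the stalk proteins Rplp0, Rplp1 and Rplp2, which recruit elongation factors to the large subunit, averaged 1392, 981 and 556 FPKM. Rps6 averaged 908 FPKM and Rps4x, an X-linked small-subunit protein, 930. All 5 had their highest mean log2 level in pregnant luminal cells, as did most measured members. Of 79 members compared, 76 were lower in pregnant basal than in pregnant luminal cells, beside 4355 of all 5862 genes tested. In pregnant against virgin luminal cells 76 were higher, beside 3054 of 6236 genes. The median summed FPKM of a cell was also highest in pregnant luminal cells, at 422524. It was 305837 in pregnant basal, 282807 in virgin luminal and 282668 in virgin basal cells. None of the 5 lay 1 or more from the median member in any comparison. Rplp1, for example, ran from 0.261 to 2634 FPKM in virgin basal cells (median 641), from 11 to 7173 in virgin luminal (754), from 3.86 to 2081 in pregnant basal (707) and from 95.1 to 4326 in pregnant luminal cells (1311). Those ranges overlap throughout, with the pregnant luminal median above the other 3.

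**Figure D3:**
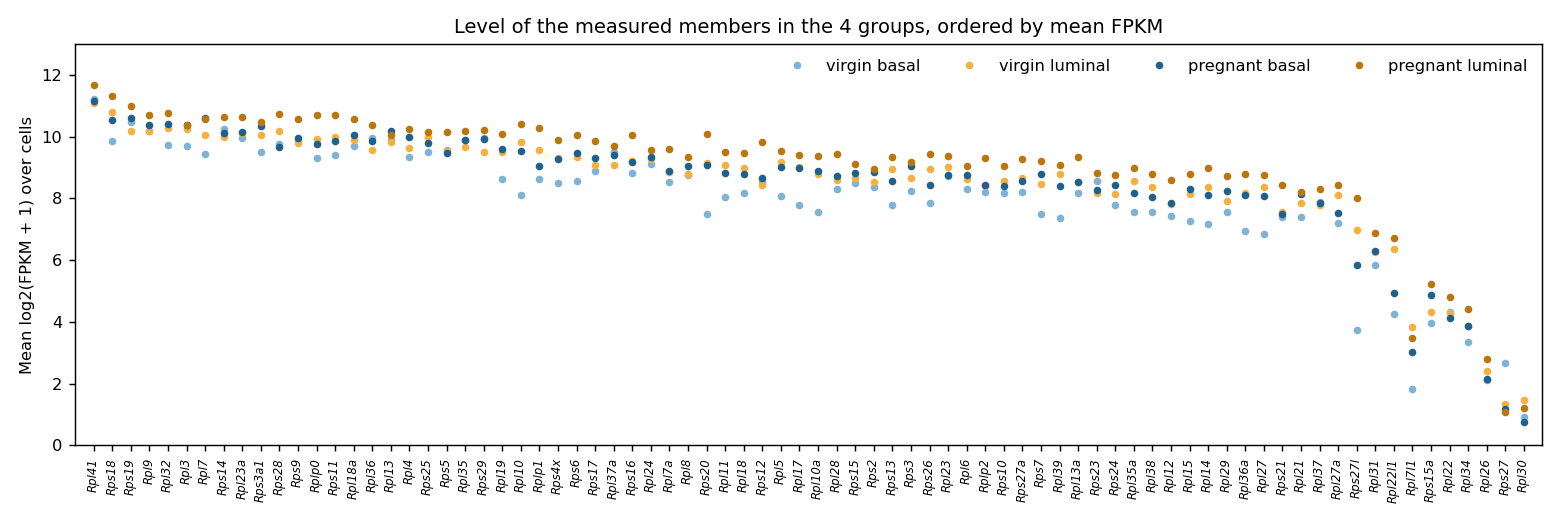
Mean log2(FPKM + 1) over cells (vertical axis) of the measured members in the 4 groups, with members ordered along the horizontal axis by mean FPKM. Most members lie between 7 and 11 in every group, and levels fall off at the right end, from Rps27l and Rpl22l1 down to Rps27 and Rpl30.

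At the low end, Rpl3l, Rpl10l and Rpl39l, relatives of Rpl3, Rpl10 and Rpl39 known from striated muscle (Rpl3l) and testis, reached 1 FPKM in 0 of 239 cells. With 3 cells of the total as the limit, a count of 0 allows up to 2.94% of pregnant basal, 5.56% of virgin luminal, 6.12% of pregnant luminal and 8.82% of virgin basal cells, and the exact intervals reach 3.55, 6.60, 7.25 and 10.3%. Above them came 6 members at 5.05 to 33.4 FPKM: Rpl30, Rps27, Rpl26, Rpl34, Rpl22 and Rps15a, of which Rpl26, Rpl34 and Rps15a were singled out after their values were seen. The other 73 measured members started at 42.4 FPKM. Proteins of a ribosome are made in near-equal numbers, so these low readings were set against sequence shared with other genes. A median of 49.8% of the 50-base stretches of these 6 occurred in transcripts of other genes (GENCODE M21), and 57.3% in the other 73. Rps27 was the highest of all at 98.6%, with 9 other genes. The counting of reads that match several genes, not given in the sources used here, leaves the level of Rps27 and of any member with close copies uncertain.

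Members moved together within a group. The Spearman rho over cells between a member and the mean of the others had a median over the 79 measured members of 0.54 in virgin basal cells, 0.72 in virgin luminal cells, 0.62 in pregnant basal cells and 0.76 in pregnant luminal cells. Values in 1 cell share a library and a scaling, which alone make levels move together. Among the least coupled members were relatives of other members: Rpl7l1 lay between -0.11 and 0.06 in the 4 groups, Rpl22l1 between 0.02 and 0.15 and Rps27l between 0.03 and 0.25. Members that are no such relatives came as low in single groups, such as Rpl11 (0.06, virgin basal cells) and Rpl30 (0.11, virgin luminal cells), both picked out after their values were seen.

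Between virgin basal and virgin luminal cells, most ribosomal protein genes differed less than other genes did. The median member was lower in basal cells by 0.40 in mean log2(FPKM + 1), against 0.95 for all 5746 genes found in at least 25% of cells of either group. Of the 82 members, 16 were higher and 65 lower in basal cells, beside 699 higher and 5047 lower of the 5746 genes. Within 0.5 of the median member lay 50 of 82 members, beside 37.1% of all genes tested. These counts of members include the 3 at 1 FPKM in no cell, whose differences lie at or near 0. Of the 79 found in at least 25% of cells of either group, 47 lay within 0.5. A member was said to depart when it lay 1 or more from the median member. There were 9 such members, 1 higher in basal cells (background over all genes tested 5.29%) and 8 lower (background 31.1%). This share of lower members is below the background. Both bounds, of 0.5 and 1, are centred on the members' own median in every comparison, here -0.40 against -0.95 for all genes. Part of each gap to all genes follows from that offset, and how much was not tested. The general shift did not hold among cells with at least 2000 genes (12 virgin basal and 53 virgin luminal), where the median member differed by 0.02, nor without cells carrying 2 or more endothelial markers, where it differed by 0.03. Without virgin luminal replicate 15 it was -0.50, with 8 departing members.

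Rps27 was the member higher in virgin basal cells. It encodes a zinc-finger protein of the small subunit (chr3:90212522-90213651). Its level ran from 0 to 63.1 FPKM in virgin basal cells (median 5.19), from 0 to 253 in virgin luminal (0.409), from 0 to 85.9 in pregnant basal (0.703) and from 0 to 86 in pregnant luminal cells (0.687). The ranges overlap, but the lower quartile of virgin basal cells (2.41) lay above the upper quartiles of both pregnant groups (1.35 and 1.28) and near that of virgin luminal cells (2.75). Rps27 reached 1 FPKM in 30 of 34 virgin basal cells (88.2%, interval 72.5 to 96.7%), in 17 of 54 virgin luminal (31.5%, 19.5 to 45.6%), in 39 pregnant basal (38.2%, 28.8 to 48.4%) and in 17 of 49 pregnant luminal cells (34.7%, 21.7 to 49.6%). Mean log2 level was 2.67 ± 1.43 (SD over 34 cells) in virgin basal and 1.33 ± 1.72 (54 cells) in virgin luminal cells, a departure of 1.74. Among cells with at least 2000 genes, it was found in 10 of 12 basal and 17 of 53 luminal cells from virgin mice. The departure shrank to 0.06 as a log2 ratio of mean FPKM, a measure that weights single high cells such as the luminal cell at 253 FPKM.

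Its relative Rps27l, a near-copy of Rps27 induced by p53 (chr9:66946086-66949516), showed the opposite order. It ran from 0 to 402 FPKM in virgin basal cells (median 32.8), from 0 to 513 in virgin luminal (174), from 0 to 799 in pregnant basal (105) and from 28 to 802 in pregnant luminal cells (306). Virgin basal cells split between cells at 0 and cells at luminal-like levels, whereas every pregnant luminal cell was above 1 FPKM. Rps27l was found in 19 of 34 virgin basal (55.9%, interval 37.9 to 72.8%), 52 of 54 virgin luminal (96.3%, 87.3 to 99.5%), 92 pregnant basal (90.2%, 82.7 to 95.2%) and 49 of 49 pregnant luminal cells (interval 92.7 to 100%). The departure in virgin basal minus virgin luminal cells was -2.84, the farthest of any member in any comparison. Restricted to cells with at least 2000 genes it was -1.36. In cells from the 25th to the 75th percentile of gene number, 6 of them virgin basal, it was -0.59, inside the threshold. Of the 7 virgin basal cells with 2 or more endothelial markers 1 held Rps27l, against 18 of the other 27, and without cells of that kind the departure was -2.51.

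Rpl22l1 also lay lower in basal cells. Its relative Rpl22 is an RNA-binding protein of the large subunit that can lower Rpl22l1 messenger RNA. Rpl22l1 (chr3:28805436-28807424) ran from 0 to 505 FPKM in virgin basal cells (median 32.4), from 0 to 565 in virgin luminal (109.8), from 0 to 628 in pregnant basal (46.2) and from 0.129 to 391 in pregnant luminal cells (142). The groups overlap, and both basal medians lie below both luminal medians. Mean log2 level was 4.25 ± 3.16 (34 cells) in virgin basal and 6.36 ± 1.69 (54 cells) in virgin luminal cells, a departure of -1.70. Among cells with at least 2000 genes it was -2.54, with Rpl22l1 found in 8 of 12 virgin basal cells. As a log2 ratio of mean FPKM the departure was -0.73, and it passed 1 in 9 of 11 alternatives. Rpl22 itself (chr4:152325742-152334071) was level between these groups, at 4.31 and 4.30.

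Rpl7l1, a relative of Rpl7 that acts in ribosome assembly (chr17:46773907-46782672), ran from 0 to 301 FPKM in virgin basal cells (median 1.31) and from 0.513 to 4299 in virgin luminal cells (9.74). It was found in 21 of 34 and 52 of 54 cells. The departure was -1.63, and -1.38 without virgin luminal replicate 15, which holds the value of 4299 FPKM. In pregnant basal cells it ran from 0 to 258 FPKM (median 4.26) and in pregnant luminal cells from 0.495 to 164 (6.57).

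Of the other members that lay lower in virgin basal cells, Rpl10, Rps20, Rpl27 and Rpl39 were abundant genes whose virgin basal level was spread widely. Rpl10, which joins the large subunit late in assembly, ran from 0.461 to 1822 FPKM in virgin basal cells (median 606) and from 105 to 2192 in virgin luminal cells (1030), a departure of -1.31. Rps20, a small-subunit head protein, departed by -1.22, Rpl27 by -1.10 and Rpl39 by -1.03. Rpl36a (-0.84) and Rpl10a (-0.81) lay just inside the threshold, as did Rps29 (0.84) and Rpl37a (0.84) on the other side. Each of Rps20, Rpl27 and Rpl39 was under 1 FPKM in 3 or 4 of 34 virgin basal cells and in 0 of 54 virgin luminal cells. Among cells with at least 2000 genes their departures were -0.06, -0.22 and 0.26, while Rpl10 had -1.06. For Rpl10 it was -0.83 without cells carrying 2 or more endothelial markers and -0.22 in cells from the 25th to the 75th percentile of gene number, so it too passed 1 in only some subsets of cells. The departures of Rps20, Rpl27 and Rpl39 were not found among cells with many genes. Other members departed only in subsets, such as Rpl11, named after its values were seen. Rpl11 lay at -0.61 over all cells, at -1.08 in cells with at least 2000 genes and at -1.49 between those percentiles. Without cells carrying 2 or more endothelial markers it lay at -1.20.

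**Figure D4:**
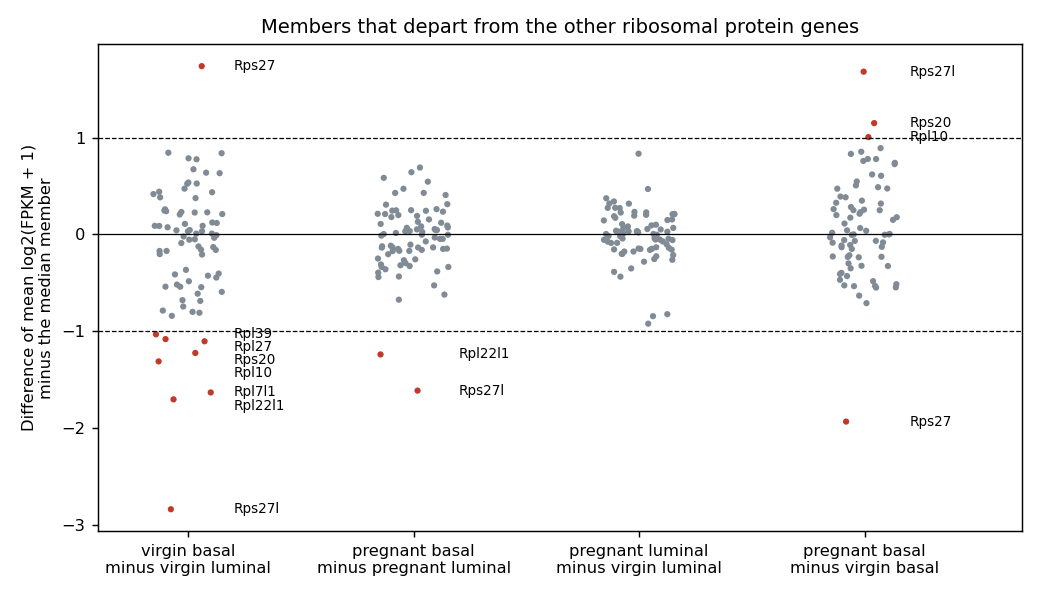
Difference of mean log2(FPKM + 1) between groups minus that of the median member (vertical axis) for each member found in at least 25% of cells of either group, in 4 comparisons (horizontal axis). Red points lie 1 or more from the median member (dashed lines), and those described in the text are named. Rps27l is the lowest point for basal minus luminal cells at both stages, and pregnant luminal minus virgin luminal cells has no red point.

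In pregnant mice the basal and luminal cells differed by a shift in which most of the set lay close together. The median member was lower in basal cells by 0.55, beside 0.56 for all 5862 genes tested, and 77 of 82 members were lower, as were 4355 of the 5862 genes. Within 0.5 of the median member lay 70 of 82 members, beside 2698 of the 5862 genes and 56.1% of abundant genes (mean log2 level of 6 or more). Departing members numbered 0 higher (background 15.4%) and 2 lower (background 13.7%), so fewer members departed in each direction than genes at large. The shift was -0.14 when every cell was rescaled to the same summed FPKM, a sum with a median of 305837 in the basal and 422524 in the luminal cells.

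The 2 departing members were again Rps27l and Rpl22l1. Rps27l had a mean log2 level of 5.85 ± 2.62 (SD over cells) in the pregnant basal gate and 8.02 ± 0.93 (49 cells) in the luminal one, a departure of -1.61. Rpl22l1 had 4.93 ± 2.35 and 6.72 ± 1.57, a departure of -1.24. The virgin comparison uses other cells, and both genes lay lower in basal cells in each. As log2 ratios of mean FPKM the departures in pregnant cells were -0.64 and -0.61. Rps27 differed little here, at 1.17 and 1.08. The stalk protein Rplp1 was 1.22 lower in basal cells, 0.67 beyond the median member.

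The paralog pairs can also be read within each cell. Rps27l made up a median of 70.3% of the summed Rps27 and Rps27l FPKM in virgin basal cells, 99.8% in virgin luminal cells, 99.3% in pregnant basal cells and 99.7% in pregnant luminal cells. It exceeded Rps27 in 19 of 34, 51 of 54 and 49 of 49 cells of the virgin basal, virgin luminal and pregnant luminal groups, and in 90 pregnant basal cells. Virgin basal cells thus had the lowest share in the Rps27 pair, but among cells with at least 2000 genes the medians were closer, at 95.8% for the 12 basal and 99.8% for the 53 luminal cells of virgin mice. In the Rpl22 pair both basal groups were lower: Rpl22l1 made up 48.9% in virgin and 69.4% in pregnant basal cells, against 84.4 and 83.7% in virgin and pregnant luminal cells. In cells with at least 2000 genes these shares were 55.9 and 68.6% in the basal and 84.5 and 84.2% in the luminal groups. Rpl7l1 made up less than 1% of its pair in every group's median, and Rpl36al, a relative of Rpl36a outside the name pattern, 18.9 to 35.8%. Each pair shares a library and its summed scaling cancels in the ratio, but reads shared between near-identical copies do not.

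**Figure D5:**
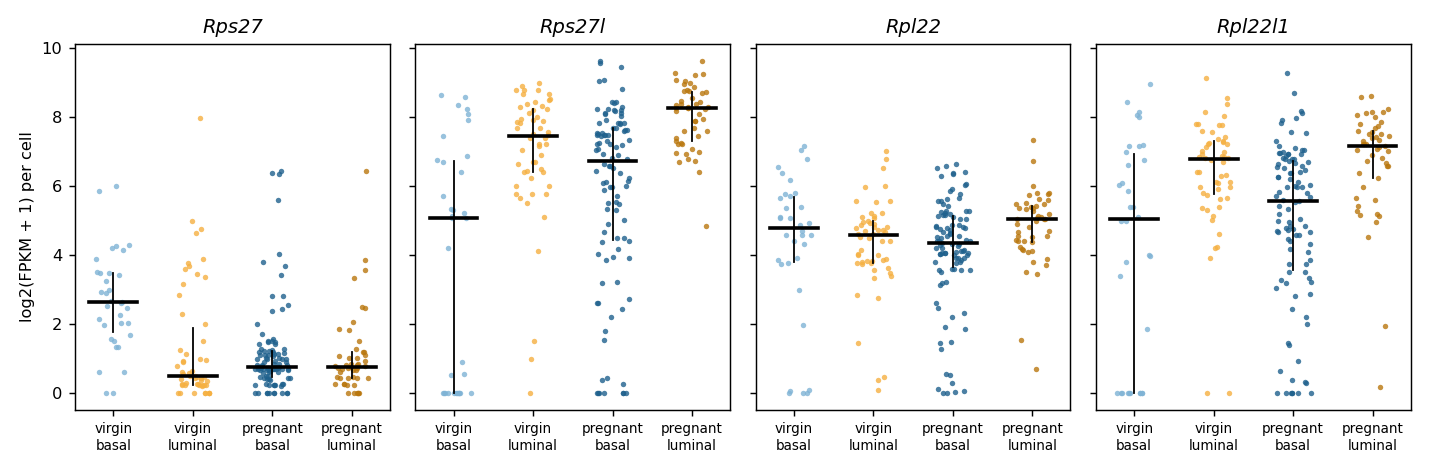
log2(FPKM + 1) per cell (vertical axis) of Rps27, Rps27l, Rpl22 and Rpl22l1 in the 4 groups. Points are cells, thick bars medians and thin bars quartiles. Rps27 lies higher in virgin basal cells, Rps27l and Rpl22l1 lie lower in basal than in luminal cells, and Rpl22 has similar medians in all 4.

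Between virgin and pregnant luminal cells most of the set was higher in pregnancy. The median member was 0.57 higher in pregnant luminal cells, while all 6236 genes tested had a median of -0.02 and the 223 abundant genes 0.41. Of the 79 members found in at least 25% of cells of either group, 76 were higher and 3 lower. Over all 6236 genes, 3054 were higher and 3182 lower. Within 0.5 of the median member lay 75 of the 79, beside 38.3% of all genes and 59.6% of abundant genes. Departing members numbered 0 higher (background 2.9%) and 0 lower (background 25.5%). The bounds are again centred on the median member, so the offset of all genes from it adds to the lower background. The nearest were Rpl7l1 (-0.92), Rpl30 (-0.84), Rps27 (-0.82) and, on the other side, Rps12 (0.83), a small-subunit protein named after its value was seen. Rps12 had mean log2 levels of 9.82 in pregnant and 8.42 in virgin luminal cells. Rescaling every cell to the same summed FPKM left 0.16 of the 0.57, and without virgin luminal replicate 15 it was 0.49.

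Between virgin and pregnant basal cells the median member was 0.43 higher in pregnant cells, beside 0.61 for all 3976 genes tested. Within 0.5 of it lay 57 of 82 members, beside 51.9% of all genes. Departing members numbered 3 higher (background 16.6%), namely Rps27l (1.68), Rps20 (1.15) and Rpl10 (1.00), and 1 lower (background 3.82%), Rps27 (-1.93). This comparison shares its virgin basal cells with the first and is not separate evidence on them. Among cells with at least 2000 genes (12 virgin basal and 93 pregnant basal) the median member differed by -0.05, Rps27l departed by 0.25, Rps20 by -0.03 and Rpl10 by 0.80. Rps27 departed by -1.48 there, with 10 of 12 virgin and 38 of 93 pregnant basal cells at 1 FPKM or more. Without cells carrying 2 or more endothelial markers the median member differed by 0.02.

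Ribosomal proteins whose names fall outside the pattern had medians of the same sign as the median member in all 4 comparisons, and farther from 0 between gates and between basal stages. There are 5 in the table, among them Rpsa, Gnb2l1 (the scaffold RACK1) and Rpl36al. Their median difference was -1.48 in virgin basal minus virgin luminal cells, beside -0.40 for the median member, with 3 lower by 1 or more (background 47.6%) and 0 higher (background 3.85%). It was -0.90, beside -0.55, in pregnant basal minus pregnant luminal cells, with 2 lower (background 28.6%). Pregnant minus virgin gave 0.59 in luminal cells, beside 0.57, and 0.81 in basal cells, beside 0.43. Rpl36al differed most between gates, by -2.42 in virgin and -2.03 in pregnant cells.

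Lists of factors that work with the ribosome had medians farther from 0 between virgin gates than its proteins. The 16 elongation factors and other TOP messages had a median of -1.39 in virgin basal minus virgin luminal cells, with 11 lower by 1 or more and 1 higher. Eif3k (-3.23), Eef1g (-3.14) and Eef1b2 (-2.30) were the farthest. The 19 initiation factors had a median of -1.56, with 11 lower and 0 higher, led by Eif3i (-3.50) and Eif3d (-3.48), both of the eIF3 complex. Of 30 ribosome biogenesis genes 24 could be compared, with a median of -0.73, 11 lower and 1 higher. Nop10 (-3.62) and Nhp2 (-3.55), parts of the box H/ACA particle, were lower in basal cells and Nop58 (2.15), of the box C/D particle, higher. Over all genes tested 47.6% were lower and 3.85% higher by 1 or more. The share of lower genes was thus above that of all genes for elongation and initiation factors and near it for biogenesis genes. The medians stand beside -0.95 for all genes and -0.40 for the ribosomal protein genes; the fewer genes found per virgin basal cell bear on all of them, and their part was not tested.

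In pregnant cells the same lists lay lower in basal cells by a median of 0.56 (elongation), 1.16 (initiation) and 0.81 (biogenesis), with 6 of 16, 11 of 19 and 8 of 26 lower by 1 or more (background 28.6%) and 0 higher (background 9.13%). Eif3i (-2.78) and Nhp2 (-3.91) were the farthest of their lists in pregnant cells. In pregnant minus virgin luminal cells the medians were 0.39, 0.29 and 0.42, and biogenesis genes gave 5 of 27 higher by 1 or more (background 7.95%) and 0 lower (background 8.26%). Those farthest were Nolc1 (1.46) and Nop58 (1.07). In pregnant minus virgin basal cells the medians were 0.93, 0.59 and 0.33, with 8 of 16, 7 of 19 and 3 of 22 higher by 1 or more (background 30.4%) and 1, 0 and 0 lower (background 0.981%).

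Among 17 regulators of ribosome synthesis, Myc, a driver of ribosome production, differed most between luminal stages, with a mean log2 level of 4.72 in pregnant and 1.59 in virgin luminal cells (difference 3.13). Eif4ebp1, a translation repressor controlled by mTOR, was 1.64 higher and Trp53, which encodes p53, 1.62 higher in pregnant luminal cells, while Rheb, an activator of mTOR, was 1.61 lower. The median of the 12 that could be compared was 0.33, with 4 higher by 1 or more (background 7.95%) and 1 lower (background 8.26%). Between gates the medians were -0.87 in virgin and -0.92 in pregnant mice, with 5 and 4 of 11 lower by 1 or more (background 47.6% and 28.6%) and 0 higher (background 3.85% and 9.13%), so the virgin share of lower genes was near that of all genes. Pdcd4, an inhibitor of eIF4A, lay lower in basal cells by 3.46 in virgin and 2.70 in pregnant mice. Mdm2, the p53 ligase that some ribosomal proteins bind, was 2.02 higher in pregnant than in virgin basal cells.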

How the data were processed

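The submitters' processing notes name Trimmomatic 0.35, TopHat2 2.0.13 and Cufflinks 2.2.1 with mm10 (GRCm38). The authors deposited 1 table of FPKM values covering 18850 genes in 239 cells, a unit read from these tools and from the values. Not given in the sources used here were annotation, strand and the handling of multiply matching reads. The submitters inspected capture sites for doublets, per the labels' protocols, and no caller was run. No cell or gene was left out, no 2 cells had identical values, and 0 columns lacked a sample.

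Members, lists and measures were chosen with earlier results of these data known. Per gene, the difference of mean log2(FPKM + 1) between groups was computed with pseudocount 1. Genes at 1 FPKM or more in 25% of cells of either group were compared. A departure is a member's difference minus that of the median member. Depth came from steps between low values: in 7691 genes, 99.99% of 444121 values under 20 steps lay within 0.05 of a whole step. Named members are those that departed by 1 or more, the 5 highest and 5 lowest, Rplp0 to Rplp2, Rps6, Rps4x and paralog pairs, with up to 4 genes of each list; some genes that meet this rule are counted but not reported here by name. Lists were the 5 translation lists, milk proteins and markers of 8 cell types. Of the other markers, at least 2 reached 1 FPKM for immune cells in 5 virgin luminal and 4 pregnant basal cells, for pericytes in 5 pregnant basal, for fibroblasts in 1 virgin basal and 1 pregnant luminal, for adipocytes in 1 virgin basal and for erythroid cells in 0. Promoters came from RefSeq (62 of 82 members matched by symbol), and coordinates and transcripts from GENCODE M21. Scripts used Python 3.11.15, numpy 2.4.6, pandas 2.3.3 and scipy 1.17.1 and were tested on simulated data. Alternatives were pseudocounts of 0.1 and 10, filters, cell subsets, scalings, thresholds and 3 added after seeing the data.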

Additional observations from a re-analysis of the deposited data

How the results depend on the processing

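No paired analysis was possible because replicate numbers only name cells, each group is 1 sample and no test was made. Of the alternative values of the 5 main measures, 153 kept their sign and moved by less than the SD over cells. Counts of departing members among them stayed within a set factor of the main count. That SD is larger than many of the differences, so a kept value can be much smaller than the main one. Some alternatives left a comparison unchanged and are counted among the 153. A further 18 moved and 17 changed sign. Those and the named single members that changed sign are given here; the causes were not tested.

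With at least 2000 genes per cell, virgin basal minus virgin luminal cells gave a subunit ratio of -0.097 and a median member of 0.019, and Rpl39 departed by 0.26. Pregnant minus virgin basal cells then gave -0.5 members found, a median member of -0.052, 1 departing member and -0.028 for Rps20. In cells from the 25th to the 75th percentile of gene number, virgin basal minus virgin luminal cells gave a ratio of -0.047, 0.5 members, 4 departing, and 0.16 and 0.24 for Rpl39 and Rps20. Pregnant minus virgin luminal cells gave a share of -3.61 points there, and pregnant minus virgin basal cells -0.5 members, a median of -0.13, and -0.21 and -0.094 for Rps20 and Rps27l. Without milk genes or the 10 most abundant genes, the share in pregnant basal minus luminal cells was -3.30 and -4.34 points. With means of FPKM in place of mean logs, virgin basal minus virgin luminal cells gave a ratio of -0.063, a median of 0.17, 2 departing and 0.061 for Rps27. Pregnant basal minus luminal cells gave a share of -0.51 points and 0 departing, pregnant minus virgin luminal cells 2 departing, and pregnant minus virgin basal cells a median of -0.100 and 2 departing. Without cells holding 2 or more endothelial markers (added after seeing the data), virgin basal minus virgin luminal cells gave a ratio of -0.084 and a median of 0.032.

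Departing members numbered 1 (pregnant minus virgin luminal) and 7 (pregnant minus virgin basal) with pseudocount 0.1. With pseudocount 10 they numbered 2 for virgin basal minus luminal, 1 for pregnant basal minus luminal and 0 for pregnant minus virgin basal cells. In the order of the report a threshold of 0.5 gave 32, 12, 7 and 25, and one of 1.5 gave 4, 1, 0 and 2; at 0.5 the second and the third include the 3 members found in no cell. Rps27l and Rpl22l1 kept their sign between gates at both stages under all 11 alternatives, and passed 1 in 9 or 10 of them. Not all 11 could move these values. Leaving out virgin luminal replicate 15 does not touch the pregnant comparison, and the filter on low values removes neither gene. For members found in no cell, the number of cells limits the share only to under 2.94 to 8.82%, and how depth bears on low members was not tested.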
